A study of Mus musculus with 10 samples.

Results

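The phagocyte NADPH oxidase is described here by 6 of its genes, Cybb, Cyba, Ncf1, Ncf4, Rac1 and Rac2, chosen by gene symbol from the 53546 genes of a read-count table. All 6 were present and all 6 passed the filter on low counts, which kept 14023 genes. The libraries are bulk RNA sequencing of CNS-associated macrophages, the macrophages of the meninges and perivascular spaces, sorted from the brains of untreated C57BL/6N mice aged 6 to 8 weeks. Homozygous mice (Mrc1-CreERT2/Mrc1-CreERT2, labelled Cre-Cre, n = 4), heterozygous mice (Mrc1-CreERT2/wt, Cre-pos, n = 3) and wild-type mice (WT, n = 3) were compared, each library from an individual mouse. CreERT2 is a Cre recombinase that stays inactive until an oestrogen receptor ligand is given, and the allele is named for Mrc1, which encodes CD206, a mannose receptor. No ligand was given to any group, so the design asks how the allele itself affects the transcripts. The labels do not say which surface proteins the sort used.

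The oxidase of phagocytes moves electrons from NADPH in the cytosol across a membrane to oxygen, which makes superoxide inside a phagosome or outside the cell. The membrane part is a pair of proteins, the catalytic NOX2 chain (gp91phox, Cybb) and its partner p22phox (Cyba), each of which needs the other to be stable. The cytosolic part holds the organiser p47phox (Ncf1) and p40phox (Ncf4), which binds a lipid of the phagosome membrane, and a Rac GTPase (Rac1 or Rac2) joins them when the cell is stimulated. Inherited loss of the membrane or cytosolic phox proteins impairs microbe killing in humans, as in chronic granulomatous disease. Rac1 is made in most cell types and also steers the actin skeleton, whereas Rac2 is mainly made in blood cells. Because assembly is switched on by phosphorylation and by GTP loading of Rac, transcript levels say nothing of how active the enzyme is.

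Transcription of Cybb in myeloid cells is known to use the ETS factor PU.1 (gene Spi1) and the interferon regulatory factor IRF8 (gene Irf8), both of whose transcripts are given further on, so the promoter stretches that hold letters of their kind are shown. RefSeq promoter windows on GRCm38.p6, from 250 bases before to 50 bases after the start, were at hand for Cybb, Cyba and Ncf1. Both strands were searched for GAGGAA (the core of a PU.1 site), for GGAA and GAAA with 2 free bases between them (an ETS-IRF composite) and for GAAA and GAAA spaced likewise (an interferon-response-like pair). Both genes with matches to the spaced patterns lie on the minus strand, and each stretch is written 5′ to 3′ along the gene with the matched letters in capitals.
Cybb, ETS-IRF composite, chrX:9469302-9469331: aagctgctgtTTTCATTTCCtcatcagaag
Cybb, interferon-response-like, chrX:9469473-9469502: tagcagtagcTTTCATTTTCcagtgtattt
Cybb, interferon-response-like, chrX:9469429-9469458: cacaagatctTTTCTCTTTCtgtagttttt
Cybb, interferon-response-like, chrX:9469334-9469363: tctgataataGAAAAGGAAAcctattgccc
Ncf1, interferon-response-like, chr5:134229688-134229717: aaaattctcaGAAAGTGAAAgactaagtct
The composite in Cybb reads GGAAATGAAA on the other strand, lies at bases 4 to 13 after the start and overlaps the window's single GAGGAA. The 3 pairs in Cybb begin 168, 124 and 29 bases before the start and overlap no other match, and the pair in Ncf1 begins 82 bases before it. Among 32851 promoter windows of the same length, 28.3% held GAGGAA, 2.72% held the composite and 3.44% held the interferon-response-like pair at least once, and 0.0152% held it at least 3 times as Cybb does. The Cyba window held none of the 3 patterns. These matches describe letters in the windows and not bound sites.

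Libraries held 27358042 to 36575446 counts in Cre-Cre, 22986972 to 32326603 in Cre-pos and 28668839 to 32931690 in WT mice. Mrc1 was at 489 ± 48.6 CPM (SD, n = 4; CPM are counts scaled by library size) in Cre-Cre, 2153 ± 153 CPM (SD, n = 3) in Cre-pos and 3481 ± 365 CPM (SD, n = 3) in WT libraries, an order that follows the labelled genotypes. All 10 markers of CNS-associated macrophages exceeded 1 CPM in every library. Their sum was 19320 to 19640 CPM in Cre-Cre, 16090 to 19010 CPM in Cre-pos and 16810 to 18540 CPM in WT libraries, so every Cre-Cre library was above every other. Mrc1 is among these 10 markers, so its low level in Cre-Cre libraries makes the difference in the sum smaller. Each of the other markers had a higher mean CPM in Cre-Cre than in WT libraries. Microglia and monocyte marker sums were lower in every Cre-Cre library than in any other library, and B cell sums were lower than in any WT library. The 8 microglia markers summed to 2087 to 3212 CPM in Cre-Cre, 4259 to 6422 CPM in Cre-pos and 4184 to 9692 CPM in WT libraries, with the top value in WT replicate 3. All 8 were present in every group. The 9 monocyte markers summed to 5.72 to 20.5 CPM in Cre-Cre, 49.0 to 68.0 CPM in Cre-pos and 75.9 to 199.7 CPM in WT libraries, with Chil3 and F10 at 0 throughout. The 8 B cell markers summed to 270.0 to 436 CPM in Cre-Cre, 364 to 480.4 CPM in Cre-pos and 503 to 772 CPM in WT libraries. Sums of dendritic cell, T and NK cell and neutrophil markers overlapped between Cre-Cre and WT libraries. For dendritic cells they were 74.8 to 226 CPM in Cre-Cre, 128 to 189 CPM in Cre-pos and 115 to 143 CPM in WT libraries, and the part of these cell types in the results that follow was not tested. Fewer cells of a type and less RNA per cell cannot be told apart in such bulk libraries. Neutrophils, which are rich in oxidase transcripts, left little trace: S100a8, Ly6g, Retnlg, Mmp8 and Ltf were at 0 in all 10 libraries, and Csf3r, which macrophages also express, was the single marker of 10 that passed the count filter.

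All 6 subunit genes were well expressed. Averaged over the 10 libraries, Cyba was at 992 CPM, Cybb at 907 CPM, Rac1 at 734 CPM, Ncf1 at 239.7 CPM, Rac2 at 221 CPM and Ncf4 at 59.9 CPM. By mean CPM these ranked 101, 115, 150, 634, 695 and 2971 among the 14023 genes tested. Levels of different genes were compared per kilobase of exon, with lengths from GENCODE vM21. On that scale Cyba stood far above the rest, at 955 ± 53.5 CPM per kilobase (SD, n = 10), followed by Rac1 at 163 ± 15.8, Cybb at 156 ± 12.8, Rac2 at 71.2 ± 9.33, Ncf1 at 65.4 ± 8.47 and Ncf4 at 29.7 ± 7.74 CPM per kilobase (SD, n = 10 each). Cyba was 5.85 times as high as Rac1 per kilobase and was higher in 10 of 10 libraries.

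Some neighbours in this order were not apart. Rac1 was above Cybb per kilobase in 7 of 10 libraries and Rac2 above Ncf1 in 6 of 10, so each of these pairs overlapped. Cybb exceeded Rac2 2.195-fold and Ncf1 exceeded Ncf4 2.21-fold per kilobase, each in 10 of 10 libraries. The place of Rac1 is uncertain, since 51.4% of its exon length is shared with Daglb on the other strand and the library kit does not mark strand. Ncf1 shares 11.1% of its exon length with Gtf2ird2 in the same way. The same counts were then divided by unshared exon length alone, a choice made after seeing the data. On that scale Rac1 was at 336 and Ncf1 at 73.6 CPM per kilobase, and Ncf1 stood above Rac2. The scale holds only if reads in the shared stretches were left out of the counts, which is not known here. Daglb itself was at 368 CPM in Cre-Cre, 398 CPM in Cre-pos and 356 CPM in WT libraries, and Gtf2ird2 at 11.04 CPM in Cre-Cre, 9.50 CPM in Cre-pos and 10.2 CPM in WT libraries.

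Of the membrane pair, Cybb, the catalytic chain, was at 851, 799, 924 and 993 CPM in Cre-Cre libraries, 905, 805 and 899.8 CPM in Cre-pos libraries and 981, 1012 and 903 CPM in WT libraries. The genotypes overlapped, although 2 of 4 Cre-Cre and 2 of 3 Cre-pos libraries lay below every WT library. Its log2 fold change was -0.11 (SE 0.095) for Cre-Cre over WT, -0.15 (SE 0.10) for Cre-pos over WT and 0.036 (SE 0.096) for Cre-Cre over Cre-pos. None of these passed edgeR's quasi-likelihood test over all genes (adjusted p = 0.978, 0.933 and 1). The interval of the difference covered folds of 0.798 to 1.07 for Cre-Cre over WT.

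Cyba, the partner that stabilises NOX2, leaned the other way. It was at 954, 1043, 1083 and 1031 CPM in Cre-Cre libraries, 1012, 971 and 1024 CPM in Cre-pos libraries and 916, 915 and 972 CPM in WT libraries. WT libraries were low, with 3 of 4 Cre-Cre and 2 of 3 Cre-pos libraries above all of them, but the ranges overlapped. Its log2 fold change was 0.14 (SE 0.075) for Cre-Cre over WT and 0.10 (SE 0.080) for Cre-pos over WT, and neither passed (adjusted p = 0.737 and 0.993 by edgeR). Cyba varied little within genotypes, with an SD of 0.061 on the log2 scale, and 0.0557% of the 1797 genes over 100 CPM varied less. The SD of Cybb was 0.11, with 4.79% of those genes below it, against a median of 0.24 over them.

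**Figure D1:**
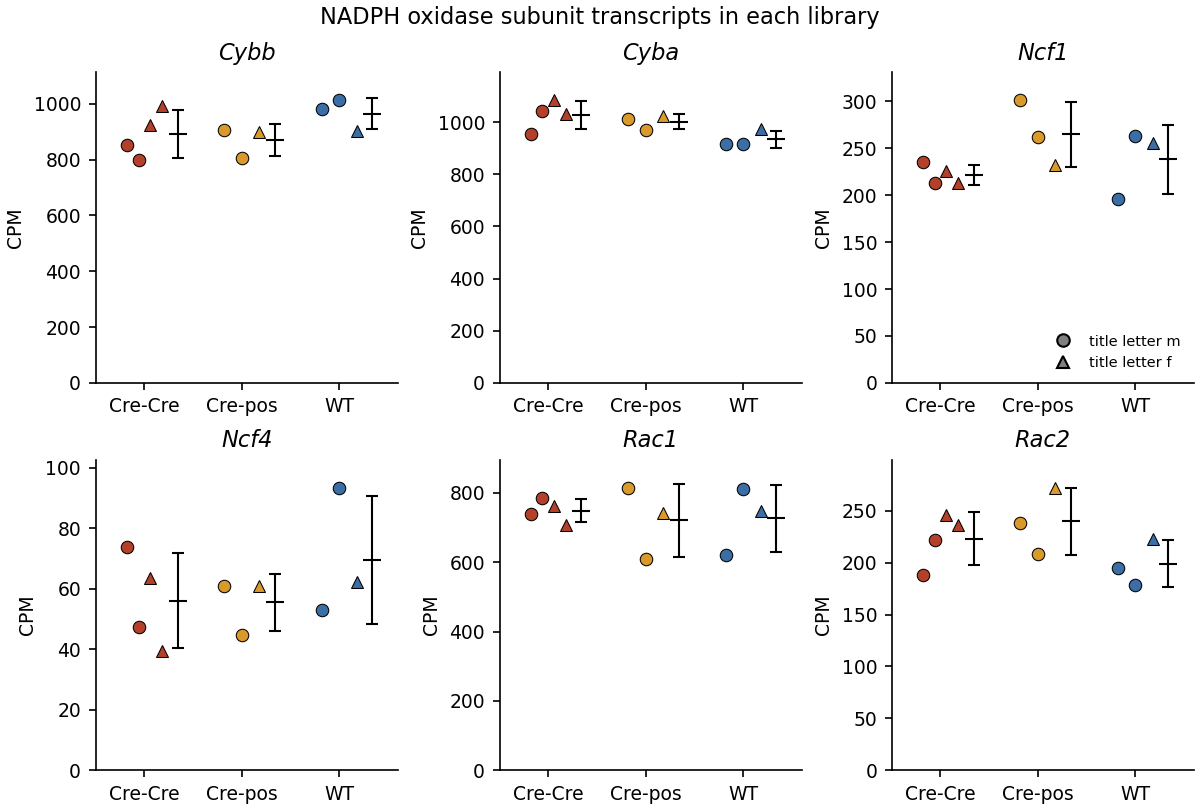
CPM (vertical axes, from 0) of the 6 oxidase subunit genes in each of the 10 libraries, by genotype, with the mean and SD of each genotype as black bars to the right of its points; circles are libraries with the letter m and triangles those with f in their titles. Cyba and Cybb stay within 915 to 1083 and 799 to 1012 CPM, the Ncf4 points spread 2.38-fold, and the genotypes overlap in all 6 panels.

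The organiser Ncf1 was at 235, 213, 226 and 213 CPM in Cre-Cre libraries, 301, 262 and 232 CPM in Cre-pos libraries and 196, 263 and 256 CPM in WT libraries. Cre-Cre libraries lay close together, with a coefficient of variation of 4.87%, against 13.1% in Cre-pos and 15.4% in WT libraries, and they fell inside the WT range. Of Cre-pos libraries 1 of 3 lay above the WT range. For Ncf1 the log2 fold change was -0.10 (SE 0.13) for Cre-Cre over WT, 0.15 (SE 0.14) for Cre-pos over WT and -0.26 (SE 0.13) for Cre-Cre over Cre-pos, and none passed (adjusted p = 0.9995, 1 and 1 by edgeR).

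Ncf4, the lipid-binding subunit, was the lowest and most variable of the genes. It was at 73.8, 47.4, 63.7 and 39.2 CPM in Cre-Cre libraries, 60.7, 44.7 and 61.0 CPM in Cre-pos libraries and 53.1, 93.4 and 62.3 CPM in WT libraries. WT replicate 2 was the highest library and Cre-Cre replicate 4 the lowest, 2.38-fold apart, while libraries in between mixed the genotypes. Its read counts were 1301 to 3054 per library, from amplified material whose reads are not independent molecules. On the log2 scale Ncf4 differed by -0.31 (SE 0.28) for Cre-Cre over WT and -0.33 (SE 0.30) for Cre-pos over WT (adjusted p = 0.997 and 1 by edgeR). The interval for Cre-Cre over WT ran from 0.525-fold to 1.24-fold, the widest of the 6 genes in that comparison, and without WT replicate 2 the log2 fold change was -0.039 for Cre-Cre over WT and -0.063 for Cre-pos over WT.

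Rac1, the GTPase of most cell types, was at 739, 786, 761 and 709 CPM in Cre-Cre libraries, 815, 608 and 741 CPM in Cre-pos libraries and 620.1, 809.9 and 749 CPM in WT libraries. The Cre-Cre libraries fell inside the ranges of both other genotypes. Its log2 fold change was 0.044 (SE 0.12) for Cre-Cre over WT and -0.010 (SE 0.13) for Cre-pos over WT (adjusted p = 0.9995 and 1 by edgeR), values whose sign changed when single libraries were left out.

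Rac2, the GTPase of blood cells, was at 188, 222, 246 and 236 CPM in Cre-Cre libraries, 239, 208 and 272 CPM in Cre-pos libraries and 195, 179 and 223 CPM in WT libraries. Above the WT range lay 2 of 4 Cre-Cre and 2 of 3 Cre-pos libraries, and the rest overlapped with it. For Rac2 the log2 fold change was 0.16 (SE 0.14) for Cre-Cre over WT, 0.27 (SE 0.15) for Cre-pos over WT and -0.10 (SE 0.14) for Cre-Cre over Cre-pos, and none passed (adjusted p = 0.985, 0.819 and 1 by edgeR). Within each genotype the libraries with the letter f in their titles had more Rac2 than those with m. In Cre-Cre these were 246 and 236 CPM against 188 and 222 CPM, in Cre-pos 272 CPM against 239 and 208 CPM, and in WT 223 CPM against 195 and 179 CPM. With the letter in the fit, the log2 difference of f over m was 0.26 (SE 0.091). It missed the threshold (adjusted p = 0.756 by edgeR), which 3 of 14023 genes (0.0214%) passed, and this difference was read out only once the libraries had been looked at. The other 5 subunits had f over m differences of -0.10 to 0.075, including X-linked Cybb at 0.075 (SE 0.080).

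**Figure D2:**
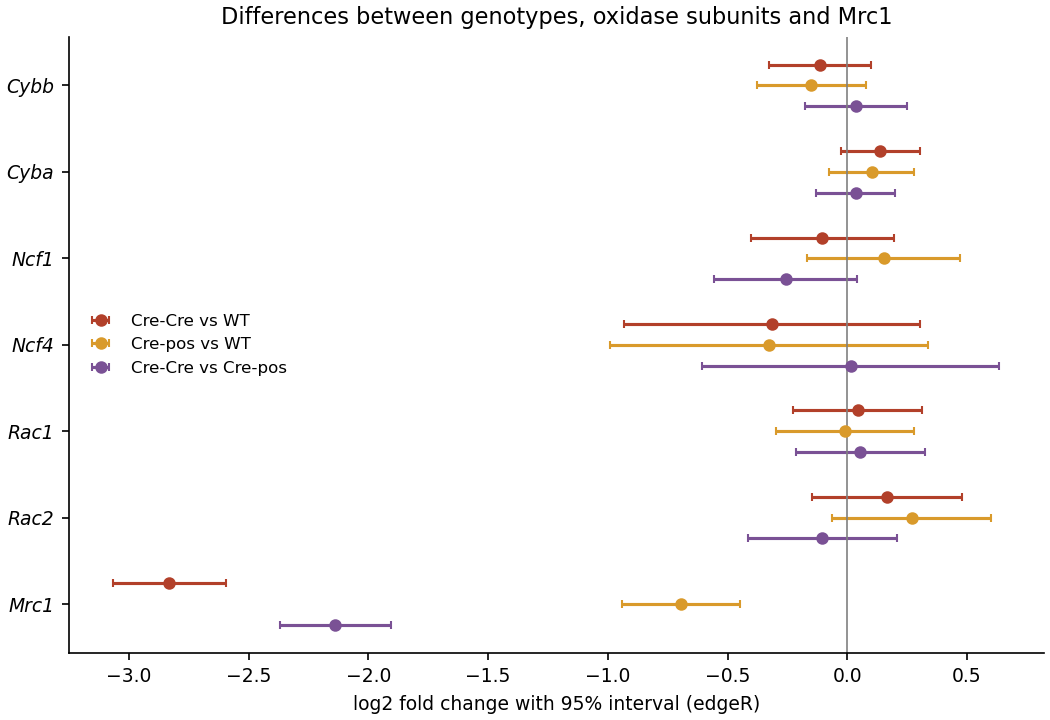
Log2 fold changes (horizontal axis) with 95% intervals from edgeR for the 6 oxidase subunit genes and Mrc1 in 3 comparisons, each named with the group on top of the ratio first. All 18 subunit intervals include 0, whereas Mrc1 lies at -2.83, -0.69 and -2.14. The Mrc1 value for Cre-pos over WT (-0.69) was not called (adjusted p = 0.2995 by edgeR).

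Across the 6 genes, 0 were called in any of the 3 comparisons by edgeR at an adjusted p under 0.05. The share of all genes called was 0.0642% (9 of 14023) for Cre-Cre over WT, 0% for Cre-pos over WT and 0.0214% (3 genes) for Cre-Cre over Cre-pos. A count of 0 among 6 genes is therefore what the background gives and is not a result particular to them. Mrc1 itself was not called for Cre-pos over WT (adjusted p = 0.2995 by edgeR), although every Cre-pos library was below every WT library. The 9 genes became 2 to 5 without any 1 of the libraries other than WT replicate 3, and 12 without that library, while the 3 genes became 2 without WT replicate 1 and 1 without any other library. Ranges that did not overlap were found for 0 of 6 subunits in each comparison, beside 7.97% of all genes for Cre-Cre over WT, 9.6% for Cre-pos over WT and 7.47% for Cre-Cre over Cre-pos. At an unadjusted p under 0.05 the subunits also counted 0 in each comparison, beside 7.52%, 5.82% and 4.86% of all genes, and DESeq2 and limma-voom called none of them either. Fitted values were above 0 for 3 of 6 genes for Cre-Cre over WT, 3 of 6 for Cre-pos over WT and 4 of 6 for Cre-Cre over Cre-pos, beside 51.1%, 50.7% and 50.9% of all genes. The median log2 fold change of the 6 was -0.030, 0.046 and 0.025 in these comparisons, beside 0.016, 0.0090 and 0.0081 over all genes tested. The first 2 comparisons share the WT libraries, so their values are not independent. The median SE of the 6 was 0.13 for Cre-Cre over WT, beside 0.61 over all genes tested and 0.18 over genes above 100 CPM. All of the subunits but Ncf4 were above 100 CPM, and Ncf4 had an SE of 0.28.

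Ratios of subunits within a library do not depend on how libraries are scaled. They use counts not divided by exon length, so they compare libraries and not the levels of different genes. The exon length that Rac1 shares with Daglb bears on its ratio too. Rac2 made up 20.3, 22.0, 24.4 and 25.0% of the summed counts of Rac1 and Rac2 in Cre-Cre libraries, 22.7, 25.5 and 26.9% in Cre-pos libraries and 23.9, 18.1 and 22.95% in WT libraries. The ranges overlapped in all 3 comparisons. The log2 ratio of Rac2 to Rac1 averaged -1.75 ± 0.18 (SD, n = 4) in Cre-Cre, -1.59 ± 0.17 (SD, n = 3) in Cre-pos and -1.87 ± 0.28 (SD, n = 3) in WT libraries, so the differences between genotypes were within about the spread of the WT libraries.

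The membrane partners were set against each other only once their levels were known. The log2 ratio of Cyba to Cybb counts was 0.17, 0.39, 0.23 and 0.054 in Cre-Cre libraries, 0.16, 0.27 and 0.19 in Cre-pos libraries and -0.10, -0.14 and 0.11 in WT libraries. Cre-pos libraries all lay above the WT range, while Cre-Cre replicate 4 fell inside it. Ratios without overlap between Cre-pos and WT were found for 9.6% of all pairs of genes over 100 CPM, and this was 1 of 9 ratio comparisons made. The shares of such pairs were 13% for Cre-Cre over WT and 11.5% for Cre-Cre over Cre-pos. The log2 ratio of Ncf4 to Ncf1 averaged -2.03 ± 0.34 (SD, n = 4) in Cre-Cre, -2.26 ± 0.32 (SD, n = 3) in Cre-pos and -1.81 ± 0.28 (SD, n = 3) in WT libraries and overlapped throughout. None of these ratios was tested.

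**Figure D3:**
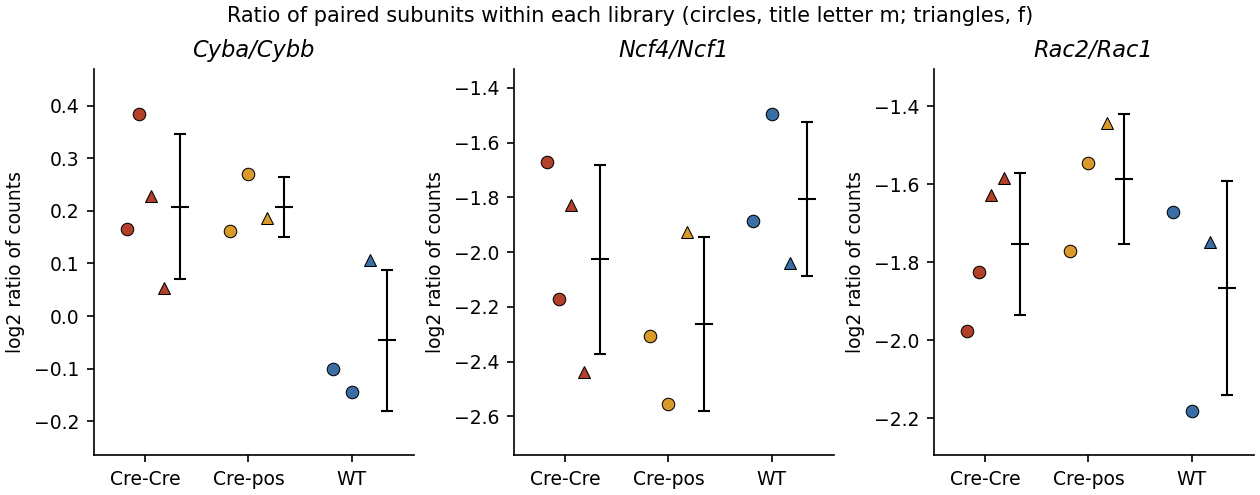
Log2 ratio of the counts of 2 subunits within each library (vertical axes, which do not start at 0) for Cyba to Cybb, Ncf4 to Ncf1 and Rac2 to Rac1, by genotype, with mean and SD as black bars; circles are title letter m and triangles f. The Cyba to Cybb points of Cre-pos libraries (0.16 to 0.27) clear those of WT libraries (-0.14 to 0.11), and the other ratios overlap between genotypes.

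The genes whose pattern over the 10 libraries was most like that of Cybb were Arpc2, a subunit of the Arp2/3 actin complex, Ly6e, C3ar1, the receptor for complement C3a, Inpp5d, a lipid phosphatase of blood cells, and B2m, the light chain of MHC class I. Likeness was the root-mean-square difference of log2 CPM after each gene was set relative to its own mean, over 3523 other genes of at least 50 CPM. It was 0.077, 0.078, 0.085, 0.089 and 0.093 for these genes, against a median of 0.32. By the same measure the other subunits ranked 115 (Cyba), 189 (Rac1), 617 (Ncf1), 640 (Rac2) and 1890 (Ncf4). Small differences favour genes that vary little. For Ncf4 the nearest genes were Pink1, Shc1, Frg1, Tmub2 and Tkt, at 0.18, 0.18, 0.19, 0.19 and 0.21, and Rac1 was the nearest subunit, at rank 94.

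Genes around the oxidase were described by lists, and 0 of their members were called in any comparison by edgeR at an adjusted p under 0.05, beside 0.0642% of all genes for Cre-Cre over WT, 0% for Cre-pos over WT and 0.0214% for Cre-Cre over Cre-pos. An unadjusted p under 0.05 was reached for Cre-Cre over WT by 1 gene each of NADPH supply, peroxide removal and the transcription factors (Idh2, Gpx1 and Irf8). For Cre-pos over WT it was reached by 1 kinase and 2 transcription factor genes, and for Cre-Cre over Cre-pos by 1 Rac regulator, 2 kinases, 1 supply gene and 1 transcription factor gene. Over all genes tested 7.52% reached it for Cre-Cre over WT, 5.82% for Cre-pos over WT and 4.86% for Cre-Cre over Cre-pos, and nothing is read from the list counts beside these shares. Of 9 genes of other NADPH oxidases (Nox1, Nox3, Nox4, the Duox enzymes and their partners), 7 had 0 counts in every library, which allows at most 0.131 CPM in the shallowest, and the highest value of any in a library was 1.12 CPM. None had enough counts to be tested. The 5 genes of the chaperone and ion list were all tested, with a median log2 fold change of -0.14 for Cre-Cre over WT (range -0.70 to 0.23). Cybc1, the chaperone that the NOX2 pair needs to mature, had a mean of 401 CPM and a log2 fold change of -0.17 (SE 0.25). The small GTPase Rap1b had -0.15 (SE 0.12), and its relative Rap1a, which is known to bind the membrane pair, had 0.057 (SE 0.19).

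Rac regulators were measured in 13 of 13 genes including Rac3, with a median log2 fold change of 0.061 for Cre-Cre over WT and -0.073 for Cre-pos over WT. Arhgdia and Arhgdib, which hold Rac proteins in the cytosol, had -0.097 (SE 0.098) and -0.18 (SE 0.12) for Cre-Cre over WT, and Vav1, an exchange factor that loads Rac with GTP, had 0.16 (SE 0.17). The 16 kinases and lipid enzymes that act on the oxidase had a median of 0.064 for Cre-Cre over WT, with 8 of 16 fitted above 0. Among these, Pik3cg, a PI3-kinase of blood cells, had 0.30 (SE 0.15), and Prkcd and Akt1, kinases that phosphorylate p47phox, had -0.092 (SE 0.16) and 0.14 (SE 0.17). None of the chaperone, Rac regulator and kinase genes named here passed edgeR's test (adjusted p from 0.693 to 0.9995 for Cre-Cre over WT).

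Of 8 tested supply genes 4 were fitted above 0 for Cre-Cre over WT (median 0.015). Idh2, a mitochondrial enzyme that makes NADPH, was at 361, 331, 331 and 380.5 CPM in Cre-Cre libraries, 224, 232 and 283 CPM in Cre-pos libraries and 216, 266 and 200.4 CPM in WT libraries. Every Cre-Cre library was above every library of the other genotypes, where 4.4% of all genes were so against WT and 3.75% against Cre-pos. Its difference of 0.63 on the log2 scale (SE 0.13) for Cre-Cre over WT did not pass edgeR's test (adjusted p = 0.268). It passed that of DESeq2 (adjusted p = 0.0041), which called many more genes than edgeR in this comparison (counts given at the end). The microglia, monocyte and B cell sums given above were lower in every Cre-Cre library than in every WT library, and their part in this difference and in that of Gpx1 was not tested. Idh1 and Tkt, a cytosolic NADPH source and a pentose phosphate enzyme, had 0.034 (SE 0.20) and -0.25 (SE 0.18).

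Of 20 tested genes of superoxide and peroxide removal, 9 were fitted above 0 for Cre-Cre over WT (median -0.050). Gpx1, a glutathione peroxidase, was at 441, 510.4, 684.5 and 560.0 CPM in Cre-Cre libraries, 693, 649 and 673 CPM in Cre-pos libraries and 644, 887 and 812 CPM in WT libraries. Below the WT range lay 3 of 4 Cre-Cre libraries, and Cre-Cre replicate 3 overlapped with it. Its difference of -0.51 on the log2 scale (SE 0.15) did not pass edgeR's test (adjusted p = 0.501). It passed that of DESeq2 (adjusted p = 0.0373), which called many more genes than edgeR here too. Prdx1, a peroxiredoxin, had -0.076 (SE 0.12) and Cat, the catalase gene, had 0.10 (SE 0.20).

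Among the 7 tested transcription factor genes, 2 were fitted above 0 for Cre-Cre over WT (median -0.26). Irf8 was at 424, 294, 367 and 389.5 CPM in Cre-Cre libraries, 428, 354 and 367.5 CPM in Cre-pos libraries and 469.9, 484 and 507 CPM in WT libraries. All 7 libraries with the allele were below all 3 WT libraries, which 3.57% of all genes showed for Cre-Cre and 4.16% for Cre-pos. The share of genes that showed both was not counted. For Irf8 the log2 fold change was -0.40 (SE 0.13) for Cre-Cre over WT and -0.35 (SE 0.14) for Cre-pos over WT. Neither passed (adjusted p = 0.558 and 0.791 by edgeR). Irf2, of the same list, was also below WT in all 7 libraries with the allele. It was at 78.2 to 95.6 CPM in Cre-Cre, 60.15 to 79.3 CPM in Cre-pos and 99.5 to 124.5 CPM in WT libraries. Its differences from WT did not pass either (adjusted p = 0.688 for Cre-Cre and 0.750 for Cre-pos by edgeR). Microglia, monocytes and B cells also express Irf8, and their summed markers, given above, were lower in Cre-Cre than in WT libraries, a part that was not tested. Spi1 was at 436.5, 378.6, 431 and 331 CPM in Cre-Cre libraries, 364.5, 394.3 and 417 CPM in Cre-pos libraries and 313, 405 and 395.3 CPM in WT libraries, which overlapped, with a log2 fold change of 0.087 (SE 0.13) for Cre-Cre over WT. Cebpb, a leucine zipper factor, had -0.32 (SE 0.18) for Cre-Cre over WT and -0.64 (SE 0.18) for Cre-Cre over Cre-pos (adjusted p = 0.774 and 0.985 by edgeR).

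**Figure D4:**
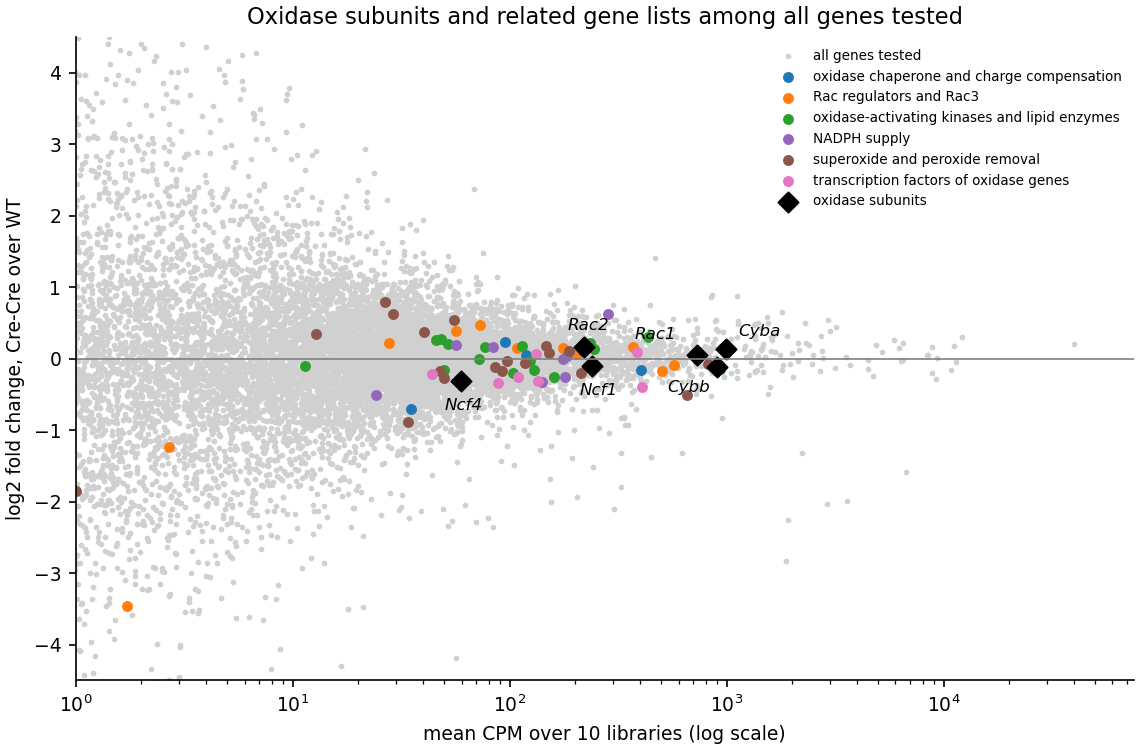
Log2 fold change of Cre-Cre over WT (vertical axis) against mean CPM over the 10 libraries (log axis) for the genes tested (grey), the related gene lists (coloured) and the 6 oxidase subunits (black diamonds); 2298 genes under 1 CPM or beyond 4.5 on the vertical axis are not drawn. The subunits lie between -0.31 (Ncf4) and 0.16 (Rac2), within the grey cloud at their level.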

How the data were processed

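The authors deposited whole-number counts, 1 row per gene symbol, for 10 libraries. Each library was prepared from total RNA (500 pg) using the SMARTer Ultra Low Input and Nextera XT kits, per the labels' protocols. The labels name 1 batch. The submitters' processing notes name featureCounts 2.0.2, STAR 2.7.8a and bcl2fastq 2.20. Genome build, annotation and strand setting were not given in the sources used here. Exon lengths came from GENCODE vM21, which holds 93.5% of the symbols, and promoters from RefSeq.

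Low-count genes were removed by filterByExpr (count of at least 10, total of at least 15, grouped by genotype). Libraries were scaled by trimmed mean of M-values and tested with edgeR 4.0.16 (R 4.3.3), quasi-likelihood with robust dispersion, on all 10 libraries with a term for genotype alone. Adjustment was by Benjamini-Hochberg over 14023 genes. SE is the size of a log2 fold change over the root of its F value, and intervals are 95% intervals. CPM uses the scaled library sizes; log2 CPM for likeness and SDs adds a prior count of 2. PCR reads are not independent molecules, so the limit from 0 counts (3 counts) covers counting error only. Alternatives were DESeq2 1.42.0, limma-voom (limma 3.58.1), DESeq2 size factors, other count filters, no robust estimation, the title letter, the replicate number, 2 genotypes alone and each library left out. Fits were checked on simulated counts. Replicates were not duplicates (chi-square per gene of at least 91.7). Figures were drawn with matplotlib 3.10.9.

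The members and lists were chosen with earlier results of these data known. Every member is named. Other genes are the 3 most abundant tested of each list and the 5 nearest in pattern. The levels of Daglb and Gtf2ird2 were added for overlap, and Irf2 because it lay below WT as Irf8 did. A gene that a list includes is not reported here.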

Additional observations from a re-analysis of the deposited data

Results flagged for a closer look

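The summed level of the 8 microglia markers in Cre-Cre replicate 1 was 2087 CPM, against 3135 to 3212 CPM in the other 3 Cre-Cre libraries, a gap that takes up 0.931 of the range of the group. Of 16 sets of 4 values examined this was the 1 set apart, and chance flags about 1 in 20 such sets. Of the oxidase subunits, that library had the lowest Cre-Cre values of Cyba (954 CPM) and Rac2 (188 CPM) and the highest of Ncf1 (235 CPM) and Ncf4 (73.8 CPM), while Cybb (851 CPM) and Rac1 (739 CPM) lay between the other Cre-Cre libraries.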

How the results depend on the processing

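No alternative called a subunit gene: in 342 refitted values of the 18 subunit fold changes the smallest adjusted p was 0.547, and 14 had the sign opposite to the reported value, all of them at most 0.141 in size. DESeq2 called 286 genes for Cre-Cre over WT (182 higher and 104 lower), 228 for Cre-pos over WT and 131 for Cre-Cre over Cre-pos, none of them a subunit. For Cre-Cre over WT the count of 9 became 17 with the title letter in the fit, 2 with only the 2 genotypes and 2 to 12 with a library left out (12 without WT replicate 3). For Cre-Cre over Cre-pos the count of 3 became 1 without robust estimation, with the title letter or with only the 2 genotypes, and 1 to 2 with a library left out. The cause was not tested.

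With the replicate number as a block the counts were 1, 0 and 1 in the 3 comparisons, and Rac1 had 0.014 (Cre-pos over WT), Ncf4 -0.028 (Cre-Cre over Cre-pos) and Idh2 -0.0014 (Cre-pos over WT), each with its sign changed. Same-numbered libraries deviated together only weakly (r from -0.0065 to 0.122 over genes of at least 20 CPM). Libraries with different numbers had r from -0.23 (title letters m and f) to 0.186 (both f). Each number goes with a single title letter, so the block takes in the letter and same-numbered libraries share it. With so few libraries per genotype these r values cannot show whether the numbers pair the samples, and the main fit had no term for the numbers. Limma-voom gave -0.018 for Ncf4 in Cre-Cre over Cre-pos.

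With single libraries left out, the sign was not fixed for Rac1 (-0.052 to 0.13 for Cre-Cre over WT, -0.12 to 0.099 for Cre-pos over WT, -0.054 to 0.16 for Cre-Cre over Cre-pos), nor, for Cre-Cre over Cre-pos, for Cybb (-0.021 to 0.085), Ncf4 (-0.14 to 0.15), Rac2 (-0.20 to 0.0069) and Irf8 (-0.12 to 0.040), nor, for Cre-Cre over WT, for Rap1a (-0.082 to 0.28), Akt1 (-0.0038 to 0.29), Idh1 (-0.12 to 0.14), Prdx1 (-0.18 to 0.0039), Cat (-0.075 to 0.27) and Spi1 (-0.016 to 0.16), nor for Idh2 in Cre-pos over WT (-0.0054 to 0.24). The Rac2 to Rac1 log2 difference ran from -0.045 to 0.21 for Cre-Cre over WT. The precision of Ncf4, the least abundant subunit, limits what can be seen of it.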
